A study of Mus musculus with 9 samples.

Results

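The Ebf genes (Ebf1, Ebf2, Ebf3 and Ebf4) and the LIM-domain-binding genes Ldb1 and Ldb2 were followed in messenger RNA from 3 cell populations of the mouse main olfactory epithelium. These 6 genes were chosen by name, as the complete Ebf family and the cofactor genes of the LIM-homeodomain factor Lhx2. All 6 were found among the 21909 gene symbols of the deposited tables. Cells came from mice aged 4 weeks, and no genotype beyond the reporters, strain or treatment is given in the labels. Horizontal basal cells (HBC), a reserve stem cell layer, were collected with a phycoerythrin-labelled antibody to CD54. The globose basal cell library (GBC) came from cells carrying a green fluorescent protein reporter of the proneural gene Neurog1. Mature olfactory sensory neurons (mOSN) came from cells with the same protein expressed from an OMP-ires-EGFP allele. With 1 library for each population there are no replicates, and no difference was tested. ScriptSeq was the kit for HBC, whereas GBC and mOSN were prepared with the mRNA kit of Illumina, so kit and population cannot be told apart in comparisons with HBC. In bulk samples such as these, fewer cells of a type and less RNA per cell cannot be told apart either.

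Ebf proteins, first described in olfactory neurons as Olf-1 and in B lymphocytes as early B-cell factor, bind DNA as dimers at a palindromic site. Such sites lie at genes of the odorant cascade and, next to sites of Lhx2, in the enhancers that act on olfactory receptor genes. Ldb1 binds no DNA itself. It pairs with itself and holds LIM-homeodomain factors through their LIM domains, and it is known for bringing distant enhancers together. Ldb2 is its close relative.

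Values are FPKM (fragments per kilobase of transcript and per unit of mapped fragments), each with the interval that the authors deposited, which covers counting error only. The total of fragments that the intervals imply is 18123310 for HBC, 18086991 for GBC and 16515790 for mOSN. Of the genes behind the sorts, Icam1 (encoding CD54) stood at 136 FPKM in HBC, Neurog1 at 163 in GBC and Omp at 1487 in mOSN. The GBC library also held 427 FPKM of Omp. The HBC library held 71.6 FPKM of Omp and markers of several other cell types, given below beside the results they accompany.

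The 4 Ebf genes were at low levels in HBC and among the most abundant messages in the other libraries. Ebf1 (chromosome 11, 44431636 to 44818674, mm9), which also specifies B lymphocytes, was measured at 4.47 FPKM for HBC (interval 3.996 to 4.93), 117 for GBC (115 to 119) and 70.8 for mOSN (68.7 to 73.0). Its level peaked in GBC. Ebf2 (chromosome 14, 67852129 to 68048604), also known from brown fat cells, had 2.34 FPKM for HBC (2.12 to 2.56), 173 for GBC (171 to 175) and 124 for mOSN (122 to 126). It too peaked in GBC, where it ranked 96 among all genes. Ebf3 (chromosome 7, 144385354 to 144506128) had 3.27 FPKM for HBC (3.03 to 3.52), 104 for GBC (103 to 106) and 158 for mOSN (156 to 160.1). Ebf4 (chromosome 2, 130121675 to 130196217) had 2.47 FPKM for HBC (2.08 to 2.87), 54.9 for GBC (53.7 to 56.2) and 106 for mOSN (103 to 108). Unlike Ebf1 and Ebf2, both Ebf3 and Ebf4 had their highest FPKM in mOSN. For none of the 4 did the intervals of any 2 libraries overlap. How common this is among all genes was not computed. Among genes of at least 1 FPKM, the Ebf genes lay between the 95.7th and 99.2th percentile in GBC and mOSN and between the 19.9th and 40.8th in HBC.

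**Figure D1:**
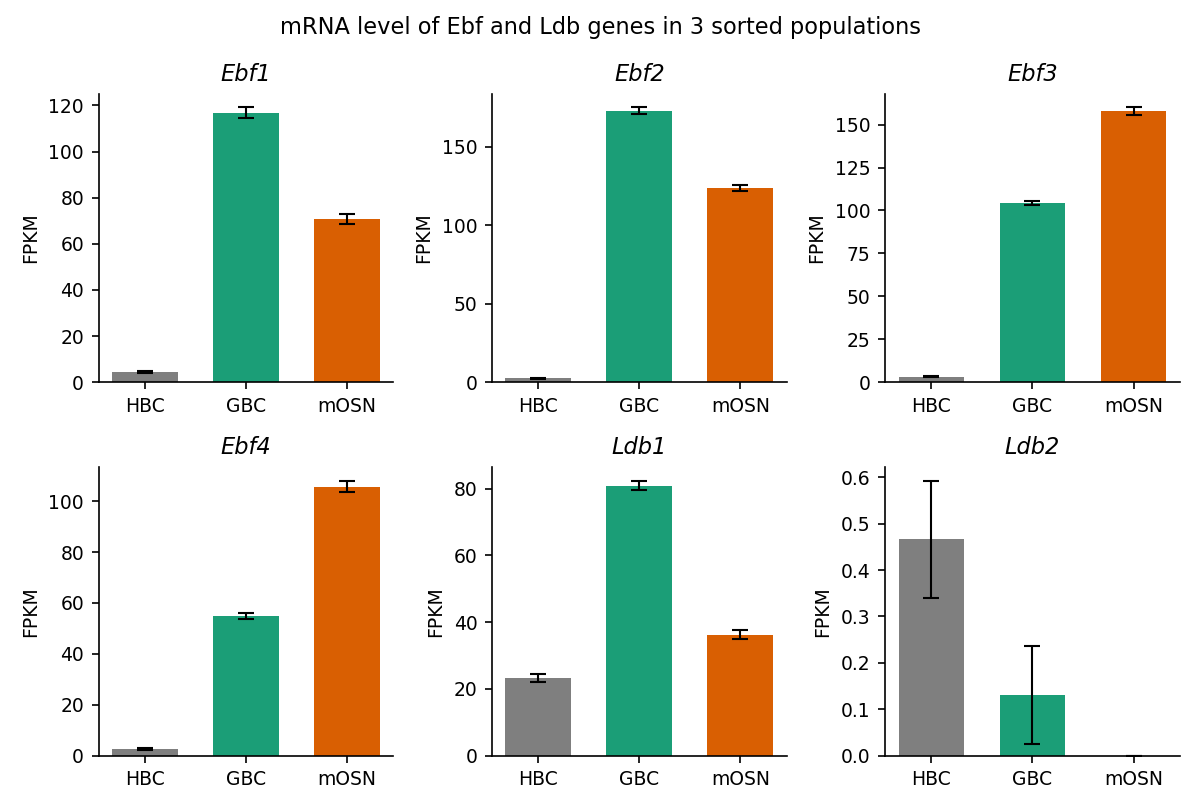
FPKM of each gene in the HBC, GBC and mOSN libraries, 1 library per bar, with the deposited interval as the error bar and a separate axis from 0 for each gene. Ebf1, Ebf2 and Ldb1 are highest in GBC (117, 173 and 80.9 FPKM), Ebf3 and Ebf4 in mOSN (158 and 106 FPKM), and Ldb2 stays under 0.6 FPKM throughout.

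The order of the family differed between libraries. In HBC it ran Ebf1, Ebf3, Ebf4, Ebf2, and the intervals of the last pair overlapped. In GBC it ran Ebf2, Ebf1, Ebf3, Ebf4, with Ebf2 1.48-fold above Ebf1 and Ebf3 1.901-fold above Ebf4. In mOSN it ran Ebf3, Ebf2, Ebf4, Ebf1, with Ebf3 1.28-fold above Ebf2. No neighbouring intervals overlapped in GBC or mOSN. Ebf1 was thus second in GBC and last in mOSN. Parts of this order depended on the conversion from fragments to FPKM, described below. With 1 factor per gene Ebf3 (26.7% of the Ebf sum) passed Ebf1 (25.1%) in GBC, Ebf4 (27.2%) passed Ebf2 (26.7%) in mOSN, and Ebf2 (23.8%) passed Ebf4 (12.8%) in HBC. Ebf2 in GBC and Ebf3 in mOSN stayed first, and Ebf1 stayed last in mOSN. The assignment of fragments shared by similar members of the family was not given in the sources used here.

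Added up, the 4 genes reached 12.6 FPKM for HBC, 449 for GBC and 458 for mOSN. The deposited sum was therefore nearly level from GBC to mOSN, at 1.0199-fold. That near-equality depended on the scale. The sum was 1.27-fold higher in GBC when each library was rescaled to a common total, 1.11-fold higher with median-of-ratios scaling and 1.40-fold higher with 1 conversion factor per gene. In that last setting each gene's implied fragments were turned into FPKM with the same factor for every library. The make-up shifted from Ebf1 and Ebf2 toward Ebf3 and Ebf4. Ebf1 and Ebf2 together held 64.5% of the summed Ebf FPKM in GBC and 42.5% in mOSN, and Ebf3 and Ebf4 held 35.5% and 57.5%. Ebf2 had the largest share in GBC (38.5%) and Ebf3 in mOSN (34.5%). With 1 conversion factor per gene the part of Ebf1 and Ebf2 was 56.7% in GBC and 43.2% in mOSN, a smaller shift in the same direction.

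**Figure D2:**
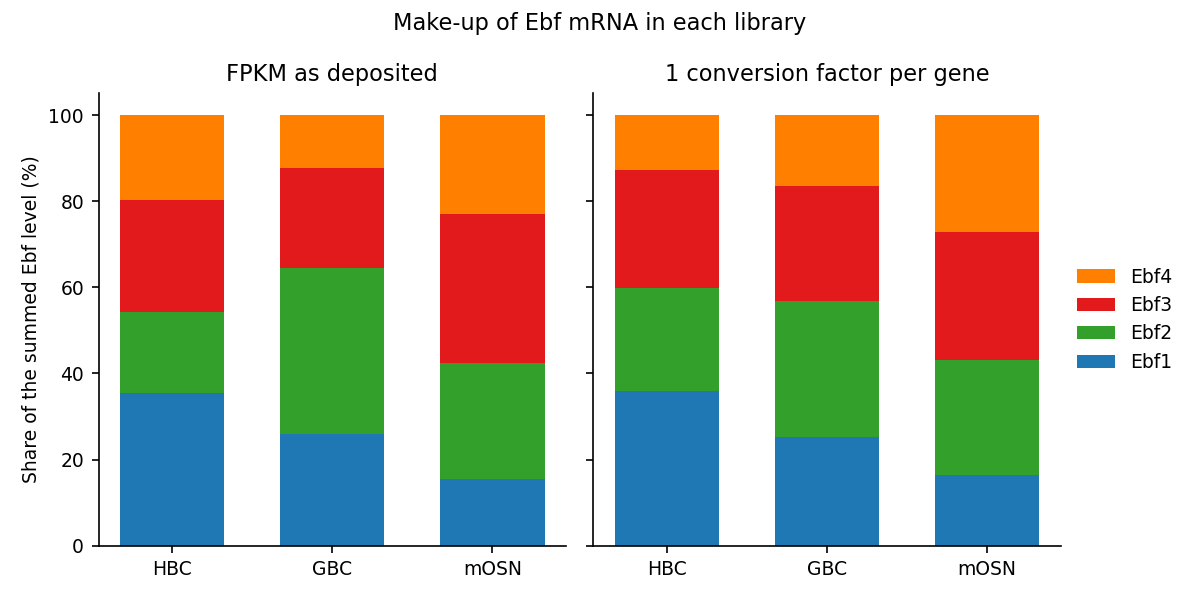
Share of each Ebf gene in the summed Ebf level of each library, in percent, from the FPKM as deposited (left) and after turning implied fragments into FPKM with 1 factor per gene (right). Ebf1 and Ebf2 make up 64.5% of the GBC bar and 42.5% of the mOSN bar on the left, and 56.7% and 43.2% on the right.

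The comparison of mOSN with GBC, which share a kit, sets mature neurons against Neurog1-reporter cells. A gene was counted as higher or lower at a 2-fold difference on the scale of log2(FPKM + 1), among genes of at least 1 FPKM in either library. That filter was passed by 5 of the 6 genes, all but Ldb2. None of the 5 was higher in mOSN by that rule, where 22.4% of 12551 genes were, and 1 was lower, Ldb1, where 10.3% were. The log2 ratio of mOSN over GBC was -0.71 for Ebf1, -0.48 for Ebf2, 0.59 for Ebf3, 0.93 for Ebf4 and -1.14 for Ldb1. The median over the 5 was -0.48, and over all 12551 genes it was 0.24. Rescaling to a common sum moved the median of all genes to -0.18, and with that shift Ebf1 (-1.10) crossed the 2-fold line beside Ldb1 (-1.53).

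The fragments implied by the intervals gave another picture for Ebf3. They are calculated back from interval widths and are not read counts. Whether they equal counts at this depth was not tested. Ebf3 had 27503 implied fragments in GBC and 19927 in mOSN, so its implied fragments were fewer in mOSN while its FPKM was higher. At equal library totals Ebf3 was 1.26-fold lower in mOSN, a log2 ratio of -0.33 with 1 conversion factor per gene. Its direction between GBC and mOSN thus depended on whether FPKM or implied fragments were compared. Ebf4 had 7969 implied fragments in GBC and 8528 in mOSN, which is 1.17-fold higher in mOSN at equal totals against 1.92-fold in FPKM. Ebf1 had 9959 and 4246 fragments, 2.14-fold lower in mOSN at equal totals, and Ebf2 had 23990 and 13230, 1.66-fold lower. Ebf1 and Ebf2 were lower in mOSN, and Ebf4 higher, under each of the 7 alternatives run on the ratios. Other pseudocounts and the choice of rows could not change a sign, so only the scalings among them tested direction.

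**Figure D3:**
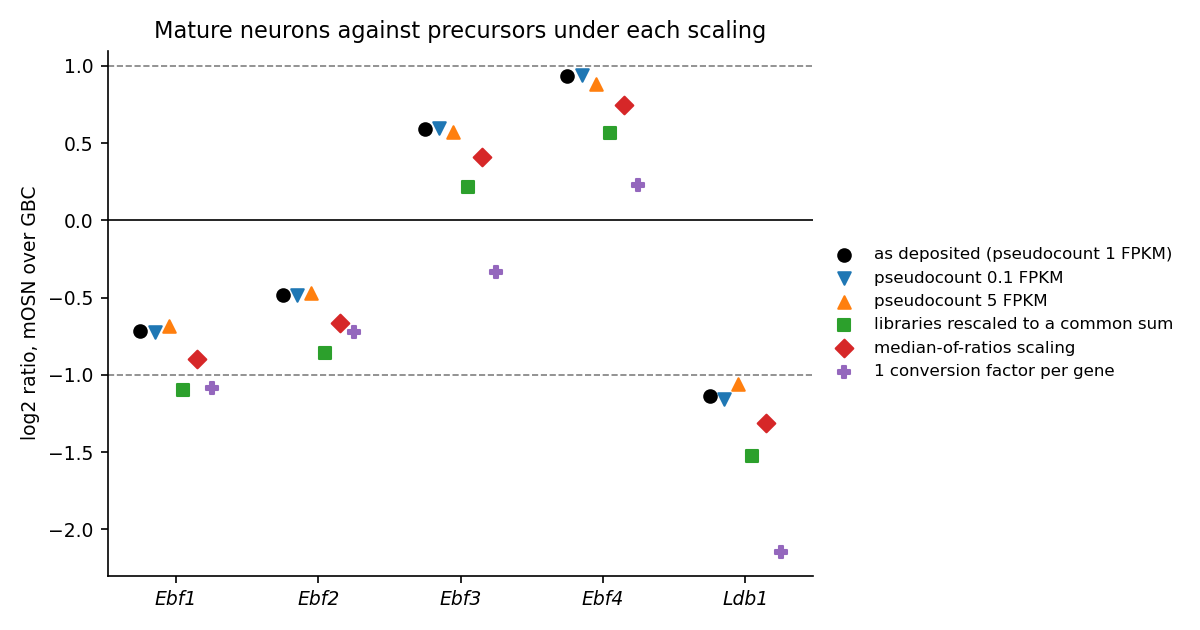
Log2 ratio of mOSN over GBC for the 5 genes with at least 1 FPKM, 1 library per population, computed as deposited and with other pseudocounts and scalings; dashed lines mark a 2-fold difference. Ebf3 lies at 0.59 as deposited and at -0.33 with 1 conversion factor per gene, and Ldb1 lies at or below -1.06 in all 6 settings plotted.

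The number of fragments that stood for 1 FPKM of a gene differed between libraries. For Ebf3 it was 263 fragments per FPKM in GBC and 126 in mOSN. The ratio of mOSN to GBC had a median of 0.712 over 10322 genes with at least 50 fragments in each library. It was 0.704 for Ebf1 and 0.771 for Ebf2, near that median. It was 0.556 for Ebf4, 0.479 for Ebf3 and 0.450 for Ldb1, and the last pair stood at the 5.71th and 3.54th percentile of those genes. What set these conversions was not tested.

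**Figure D4:**
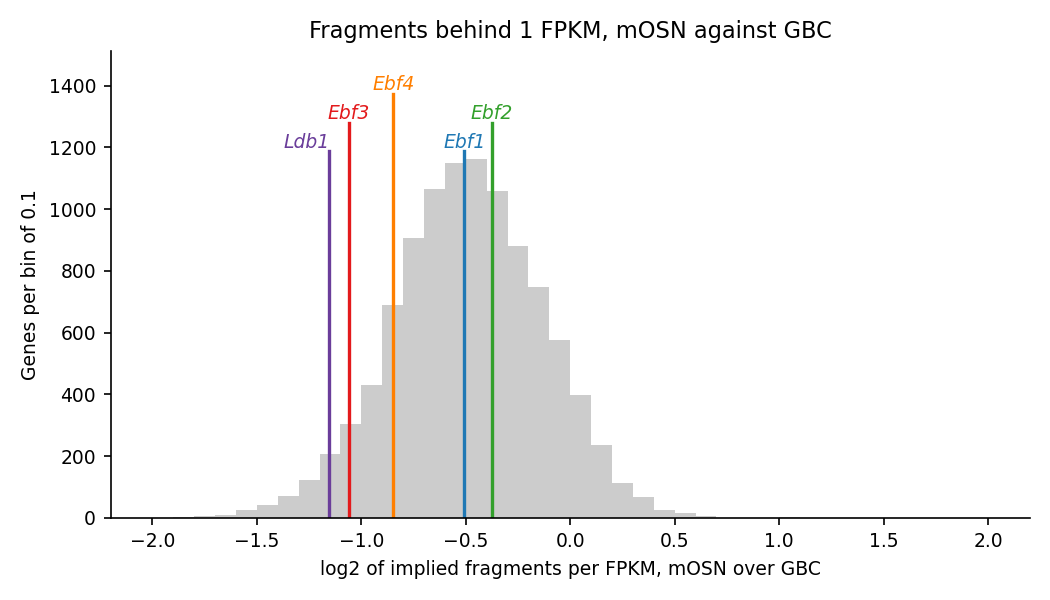
Histogram over genes of the implied fragments per FPKM in mOSN relative to GBC, on a log2 axis, with the values of the 5 genes as vertical lines. Ebf1 (ratio 0.704) and Ebf2 (0.771) lie near the median of 0.712, while Ebf3 (0.479) and Ldb1 (0.450) lie in the lower tail.

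Ldb1 (chromosome 19, 46107091 to 46119701) was present in all 3 populations. It stood at 23.3 FPKM for HBC (interval 21.9 to 24.6), 80.9 for GBC (79.5 to 82.4) and 36.3 for mOSN (34.8 to 37.8). No 2 of these intervals overlapped, and how common this is among all genes was not computed. Its level peaked in GBC, 2.23-fold above mOSN and 3.48-fold above HBC. In fragments at equal totals it was 10.2-fold above HBC, and its log2 ratio of GBC over HBC ran from 1.15 to 3.26 over the 7 alternatives. It was lower in mOSN than in GBC in each of the 7 alternatives, from -2.14 to -1.06 on the log2 scale. Only the scalings among these alternatives could have changed the sign. Its implied fragments were 12386 in GBC and 2498 in mOSN, 4.53-fold fewer at equal totals. Between mOSN and HBC its log2 ratio was 0.62 from the deposited FPKM, -0.16 under median-of-ratios scaling and 1.11 with 1 conversion factor per gene. Which of those libraries held more Ldb1 thus depended on the scaling.

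Ldb2 (chromosome 5, 44863372 to 45190946) did not reach 1 FPKM in any library. It had 0.466 FPKM in HBC (interval 0.340 to 0.593) from 54 implied fragments and 0.131 in GBC (0.0256 to 0.237) from 6. It was listed at 0 in mOSN. Ldb1 was thus the LIM-domain-binding gene with messenger RNA above 1 FPKM in each library. Endothelial markers, of which the highest was Pecam1, accompanied Ldb2 in HBC. They summed to 21.3 FPKM for HBC, 3.60 for GBC and 1.39 for mOSN, with 8, 0 and 0 of 10 at 1 FPKM or more, and their part in the Ldb2 value was not tested.

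GBC was compared with the HBC library across the difference in kit. In that library macrophage and monocyte markers summed to 3651 FPKM and horizontal basal cell markers to 1433, so it was not of basal cells alone. All 5 genes that passed the filter were at least 2-fold higher in GBC, where 34.6% of 13736 genes were, and none was lower, where 23.4% were. The log2 ratios of GBC over HBC were 4.43 for Ebf1, 5.70 for Ebf2, 4.63 for Ebf3, 4.01 for Ebf4 and 1.76 for Ldb1. Ebf2 showed the largest difference of the 5, at 73.9-fold in FPKM. Between these libraries Ebf4 and Ldb1 had high conversions, at the 93.3rd and 97.6th percentile of genes, and with 1 conversion factor their log2 ratios were 5.01 and 3.26. The deposited median over the 5 genes was 4.43 and the median of all genes 0.46, which median-of-ratios scaling moved to -0.11. Between mOSN and HBC, a comparison that shares its libraries with the other comparisons, 4 of the 5 were at least 2-fold higher in mOSN (40.4% of 14092 genes) and none lower (23.0%). The log2 ratios were 3.72 for Ebf1, 5.22 for Ebf2, 5.22 for Ebf3, 4.94 for Ebf4 and 0.62 for Ldb1, with a median of all genes of 0.63 that the same scaling moved to -0.10. The 4 Ebf genes stayed at least 3.004 on the log2 scale above HBC in GBC, and at least 2.99 in mOSN, under the 7 alternatives.

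Markers of neurons and of other cells accompanied the low Ebf values in HBC. Omp in HBC was 4.82% of its mOSN level, Cnga2 1.13%, Gnal 0.865% and Adcy3 2.11%. The same percentage was 6.30% for Ebf1, 1.89% for Ebf2, 2.07% for Ebf3 and 2.34% for Ebf4. Ebf1 thus had the highest HBC level relative to mOSN of the family. Relative to GBC, the HBC level in FPKM was higher for Ebf4 (0.0450-fold) than for Ebf1 (0.0382-fold). In fragments at equal totals it was 0.0197-fold for Ebf4 and 0.0364-fold for Ebf1. Markers of the B lineage, in which Ebf1 acts, were at 1 FPKM or more in 10 of 10 in HBC (1.41 to 11.2 FPKM, summed 41.6). None of the 10 reached 1 FPKM in GBC or mOSN (summed 2.10 and 0.870 FPKM), and Pax5, the B-lineage factor, was at 2.47 FPKM in HBC and listed at 0 in both other libraries. Fibroblast markers summed to 148 FPKM for HBC, 13.2 for GBC and 8.02 for mOSN. Pericyte and smooth muscle markers summed to 12.4, 1.27 and 3.34 FPKM, and adipocyte markers to 8.34, 0.803 and 0.105 FPKM. In HBC the adipocyte sum came from Fabp4 (5.24 FPKM) and Pparg (3.09) alone, with 4 of 6, among them Adipoq and Plin1, listed at 0. Whether each of these cell types was present, and its part in the HBC values of the Ebf genes, was not tested.

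The other marker lists describe the libraries. In HBC, 8 of 8 horizontal basal cell markers and 10 of 10 macrophage and monocyte markers reached 1 FPKM, summing to 1433 and 3651 FPKM, against at most 3.37 and 4.91 in the other libraries. The basal cell list includes Icam1, which encodes the antigen of the HBC sort, so that marker is not independent of the sort. T and NK cell markers summed to 94.4 FPKM for HBC, 1.07 for GBC and 0.923 for mOSN. Sustentacular cell markers summed to 1910, 45.3 and 159 FPKM. Most of the HBC sum came from Cbr2 (881 FPKM) and Cyp2f2 (748). These genes, Ugt2a1, Krt18 and Ermn had their highest FPKM in HBC. The rest of that list peaked in mOSN, at 46.1 FPKM for Cyp2g1, 5.14 for Cyp1a2 and 6.08 for Sult1c1. Their HBC values were 11.1, 1.99 and 3.28 FPKM. Precursor markers summed to 81.2, 611 and 12.2 FPKM, immature neuron markers to 23.1, 1956 and 449, and mature neuron markers to 150, 1209 and 9712. Neurog1 in the precursor list and Omp in the mature neuron list are likewise genes of the sort reporters. Markers of ensheathing glia summed to 6.71, 1.72 and 3.21 FPKM, and erythroid markers, which include near-identical globin copies, to 54.4, 37.8 and 12.7.

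Lhx2 was the only 1 of 12 LIM-homeodomain genes to reach 1 FPKM in GBC or mOSN. This factor, which Ldb1 binds, had 2.497 FPKM for HBC (interval 2.11 to 2.89), 169.7 for GBC (168 to 172) and 109.5 for mOSN (107 to 112). In deposited FPKM its order over the libraries, highest in GBC and lowest in HBC, was that of Ebf1, Ebf2 and Ldb1. Isl1, a LIM-homeodomain factor of other neurons and of endoderm, was the only other one above 1 FPKM, at 4.43 FPKM in HBC. Ldb1 had 0.477 times the FPKM of Lhx2 in GBC, 0.331 times in mOSN and 9.31 times in HBC. Summed Ebf FPKM was 2.65 times that of Lhx2 in GBC and 4.18 times in mOSN. Lhx2 also had a low conversion in mOSN, and its log2 ratio of mOSN over GBC was -0.63 as deposited and -1.66 with 1 conversion factor per gene.

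LIM-only proteins have LIM domains without a DNA-binding domain and bind Ldb proteins too. Of 4 such genes 3 were measured between mOSN and GBC, 1 higher and 1 lower in mOSN (22.4% and 10.3% of all genes). With 1 conversion factor none was higher and 2 were lower (Lmo1 and Lmo4). Lmo1 had 1.76 FPKM for HBC, 14.2 for GBC (interval 13.0 to 15.3) and 0.717 for mOSN (0.397 to 1.04). Its level was highest in GBC, and it was the LIM-only gene counted as lower in mOSN. Lmo2, known from blood cells and endothelium, had 22.3, 10.2 and 24.3 FPKM, and its log2 ratio of mOSN over GBC was 1.177 as deposited, against 0.46 from the fragments with a single factor. Lmo4 had 20.1, 23.6 and 12.9 FPKM. Lmo3 was under 0.1 FPKM in HBC and listed at 0 in the others.

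Ssbp proteins stabilise Ldb1. All 3 genes were measured, with 1 higher and none lower in mOSN than in GBC (22.4% and 10.3% of all genes). Between GBC and HBC 2 were higher and none lower in GBC (34.6% and 23.4% of all genes). The first count was 0 higher and 1 lower with 1 conversion factor, where the log2 ratio of Ssbp4 went from 1.205 to 0.27 and that of Ssbp3 from -0.23 to -1.33. Ssbp2 had 1.702, 31.5 and 17.5 FPKM in that order of libraries, and Ssbp3 had 8.95, 30.996 and 26.3. Both were highest in GBC, as Ldb1 was. Ssbp4 went the other way, with 12.6, 6.28 and 15.8 FPKM. Its log2 ratio of GBC over HBC was -0.90 as deposited and 1.12 with 1 conversion factor per gene, so its direction there depended on the conversion.

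Among genes whose products act on Ebf or Ldb proteins, Zfp423, a zinc finger protein that binds Ebf proteins and represses them, had 0.691 FPKM for HBC, 12.6 for GBC (interval 12.1 to 13.0) and 3.29 for mOSN (2.997 to 3.58). Its log2 ratio of mOSN over GBC was -1.66, and -2.41 with 1 conversion factor. Its relative Zfp521 stayed under 0.5 FPKM in all 3 libraries. Rlim, the ubiquitin ligase of LIM-domain cofactors, had 15.1, 8.13 and 11.3 FPKM. Of the 2 of these 3 genes measured between mOSN and GBC, 1 was lower (Zfp423) and none higher (10.3% and 22.4% of all genes).

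Genes known for an Olf-1 site were highest in mOSN, then GBC, then HBC. All 4 were at least 2-fold higher in mOSN than in GBC and in GBC than in HBC, with median log2 ratios of 2.71 and 3.13, where 22.4% and 34.6% of all genes were. With median-of-ratios scaling Adcy3 was at 0.84 in GBC over HBC, which left 3 of the 4 there. Omp, the olfactory marker protein, had 71.6 FPKM for HBC, 427 for GBC and 1487 for mOSN. Cnga2, the main subunit of the transduction channel, had 6.44, 95.5 and 570.0 FPKM. Gnal, the G protein subunit of the cascade, had 9.87, 157 and 1141, and Adcy3, its adenylyl cyclase, 11.54, 32.8 and 547. From GBC to mOSN these 4 genes were 1.80 to 4.02 higher on the log2 scale, while no Ebf gene exceeded 0.93. Omp and the neuronal reporter of the mOSN sort are the same locus, so Omp there is not independent of the sort.

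**Figure D5:**
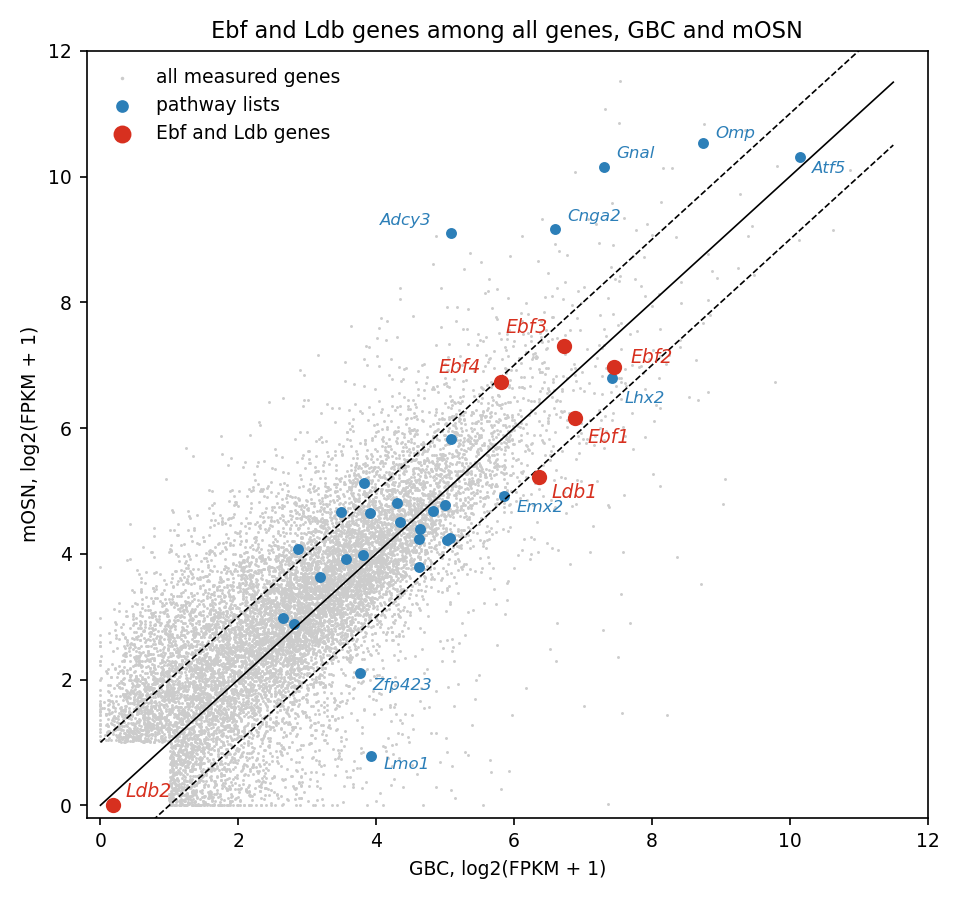
Each gene of at least 1 FPKM in GBC or mOSN (grey), the genes of the pathway lists (blue) and the Ebf and Ldb genes (red), plotted as log2(FPKM + 1) in GBC (horizontal) against mOSN (vertical), with the line of equality and dashed lines at a 2-fold difference. The Ebf genes lie inside the 2-fold lines, Ldb1 lies just below them, and the Olf-1 site genes lie above them.

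The core of the Ebf site was looked for in RefSeq promoters of build GRCm38.p6, which span 250 bases before to 50 after each start site. The letters CCCNNGGG read the same on both strands, and 13.7% of all 32851 promoters hold them. The table holds 7 promoters of 4 of the 6 genes (Ebf1, Ebf3, Ebf4 and Ldb1), and 2 of the 7 hold the core, 1 of Ebf3 and 1 of Ldb1. These promoters are rich in G and C, with a median of 67.3% against 52.7% for all. The Cnga2 promoter is shown beside them because its gene is a known Olf-1 target. Adcy3, of the same list, has 2 promoters in the table, and neither holds the core. The matches start 66 bases upstream of the start site in Cnga2 (chrX:71991767-71991806, plus strand), 21 in Ebf3 (chr7:137314446-137314482, minus strand) and 47 in Ldb1 (chr19:46039645-46039684, minus strand). Capitals mark the core, and the stretches end before the start site.
Cnga2: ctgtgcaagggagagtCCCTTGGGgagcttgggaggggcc
Ebf3: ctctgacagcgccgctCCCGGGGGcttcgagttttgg
Ldb1: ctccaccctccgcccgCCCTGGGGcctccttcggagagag

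Ebf1 and Ebf4, whose FPKM differed in opposite directions between GBC and mOSN, have no such core in the windows of that table. The 60 bases before the start site are shown to compare them. The Ebf1 stretch (chr11:44618040-44618099, plus strand) comes from the first of its 2 promoters, of 36.7% G and C (the second has 53.0%), and the Ebf4 stretch (chr2:130295879-130295938, plus strand) from a promoter of 74.3%.
Ebf1: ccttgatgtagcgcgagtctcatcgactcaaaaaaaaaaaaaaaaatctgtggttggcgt
Ebf4: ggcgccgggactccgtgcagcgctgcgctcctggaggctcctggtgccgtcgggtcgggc
The letters TAATTA, a core bound by LIM-homeodomain factors that also reads the same on both strands, are in 5.29% of all promoters and in 0 of the 7 promoters of the Ebf and Ldb genes.

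Other factors known at receptor genes were measured as a list of 5. None differed by 2-fold between mOSN and GBC, where 22.4% of all genes were higher and 10.3% lower in mOSN. In GBC 4 were higher than in HBC, where 34.6% of all genes were. The first count depended on the scaling, since 3 of the 5 (Lhx2, Emx2 and Kdm1a) were lower in mOSN by over 2-fold with a common sum and with 1 conversion factor. With the latter the log2 ratios were -1.66, -1.52 and -1.82. Emx2, a homeodomain factor, had 1.48 FPKM for HBC, 56.8 for GBC (interval 55.4 to 58.2) and 29.4 for mOSN (28.1 to 30.7), highest in GBC like Ebf1, Ebf2 and Lhx2. Kdm1a, a lysine demethylase needed for the start of receptor expression, had 8.55, 32.6 and 18.1 FPKM. Atf5, a factor of the feedback from the receptor, had 23.7, 1130 and 1274 FPKM. Its log2 ratio of mOSN over GBC was 0.17 as deposited, and its sign turned under all 3 other scalings, to -0.56 with 1 conversion factor per gene.

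CTCF and cohesin shape chromatin loops in all cells, and all 11 genes of that list were measured. Between GBC and HBC 2 were higher and none lower in GBC (34.6% and 23.4% of all genes), with a median of 0.45. Between mOSN and GBC 1 was higher (Stag2) and none lower (22.4% and 10.3% of all genes), with a median of 0.32. The direction of the list between GBC and HBC depended on the conversion. With 1 factor per gene 1 was higher and 4 were lower in GBC (Stag1, Stag2, Nipbl and Wapal), with a median of -0.64. Rad21 had 21.0, 32.9 and 55.8 FPKM, and Ctcf had 10.9, 18.8 and 26.9. Smc1a had 21.3, 27.2 and 24.6 FPKM, and Stag2 had 18.02, 13.2 and 33.9. The medians of all genes were 0.46 and 0.24.

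Genes of like pattern were sought among 9252 genes by the distance between profiles of log2(FPKM + 1) over the 3 libraries, each centred on its mean. With 3 libraries such likeness is common and describes these libraries only. Nearest to Ebf2 were Uchl1, an abundant neuronal ubiquitin hydrolase (5.31, 341 and 252 FPKM in HBC, GBC and mOSN, distance 0.0718), Lhx2 (distance 0.171), Trim66 and Stmn3. Nearest to Ebf1 were Med12l (distance 0.0792), Cadm3, Emx2 (0.151) and Mical2. Nearest to Ebf3 were Rd3 (distance 0.121), Syt11, Tmprss6 and Rab6b. Nearest to Ebf4 were Fam149a (distance 0.0260), Syt7, a synaptotagmin (1.37, 37.6 and 68.6 FPKM, distance 0.0611), Flrt1 and Cdhr1. Ldb1 was nearest to Camk2g (distance 0.0255), Purg, Usf1 and Zscan21. Within a distance of 0.5 there were 411 genes for Ldb1 and between 15 and 69 for the Ebf genes, so the Ldb1 pattern was the most common of the 5.

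Within the deposited coordinates only Ebf2 shared its span with another gene of the tables. Gm6878 (chromosome 14, 67923725 to 67933548), a predicted gene, lies inside it and had 0.282 FPKM for HBC, 2.38 for GBC and 22.8 for mOSN. The use of strand in counting was not given in the sources used here, so reads of the pair may not have been told apart, and that part in the Ebf2 value was not tested.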

How the data were processed

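Poly-A RNA of 3 sorted populations was measured in 1 library each, grouped by sample titles. The 3 samples of 5-hydroxymethylcytosine and 3 of 5-methylcytosine were not analysed here. Per the file headers, the authors deposited FPKM, an interval and a status for every gene, from Bowtie, TopHat and Cufflinks on mm9, per the submitters' processing notes, without versions. Annotation and settings were not given in the sources used here.

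The tables held 22345 rows each, and rows of 1 symbol were added up. Each of the 6 genes had 1 row of status OK in every library. Starts were raised by 1. Differences were taken on the log2(FPKM + 1) scale, so those of low genes are understated. A half-width of 2 times the FPKM over the square root of n gave the implied fragments n, and among rows with up to 100 fragments 69.0% to 77.6% came out within 0.03 of a whole number. Rows with more fragments were not checked in this way. In HBC n was near a whole number for Ebf1 (363.003) but not for Ebf3 (718.257) or Ldb2 (54.4745), so n is not always a count. Intervals cover counting error only, since each comes from 1 library. PCR copies carry no molecular identifier, so they could not be told apart from separate fragments.

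The genes and lists (7 pathway and 14 marker lists, 155 of 156 symbols matched) were chosen with earlier results of these data known. Named from each pathway list were members of at least 5 FPKM, up to 4 by highest FPKM. The 4 nearest profiles were named for those of the 6 genes that reached 5 FPKM, which leaves out Ldb2. Isl1, Lmo3, Zfp521, Icam1, Neurog1 and Pax5 were named after their values were seen. The ratio and threshold were run on simulated data in which both libraries had the same base counts and conversion. That run could not show the effect of differences in conversion or scaling between libraries. Work used Python 3.11.15 with pandas 2.3.3 and numpy 2.4.6.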

Additional observations from a re-analysis of the deposited data

How the results depend on the processing

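Counts of genes past 2-fold were recomputed under 11 alternatives, and 61 of 66 stayed within 1.5 times. Taking the highest row per symbol or leaving out rows by status could not move them. These genes had 1 row each in every library, of status OK. The number lower in mOSN than in GBC was 1 (Ldb1). It was 2 after rescaling to a common sum and 2 with 1 conversion factor per gene, where Ebf1 joined, and 0 at a threshold of 4-fold. With the common sum, 1 gene (Ldb2, which then passed the filter on low values) was lower in GBC than in HBC, and 1 (Ldb2) lower in mOSN than in HBC. Of 15 log2 ratios under 7 alternatives each, among which only the scalings could change a sign, 2 of 105 values changed sign. These were Ebf3 in mOSN against GBC (-0.33 with 1 conversion factor per gene) and Ldb1 in mOSN against HBC (-0.16 with median-of-ratios scaling).

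Over all genes, the share of called genes that were higher in mOSN than in GBC was 68.5% as deposited, 43.1% with the common sum, 59.8% with median-of-ratios scaling and 50.5% with 1 conversion factor per gene. For GBC against HBC it was 59.7%, and 42.1% with median-of-ratios scaling. For mOSN against HBC it was 63.7%, 51.0%, 45.5% and 51.4% in the same order. Depth limits Ldb2, whose values rest on at most 54 implied fragments. No paired analysis was possible because each population is 1 library.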
